A study of Homo sapiens with 4 samples.

Results

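The mRNAs described here encode the nuclear cofactors of the RNA exosome: MTREX, ZCCHC7, ZCCHC8, RBM7, ZFC3H1, TENT4A, TENT4B, C1D and MPHOSPH6. They were chosen by symbol, for the known roles of their proteins, at a time when earlier results of these data were known. All 9 listed symbols were present among the 12838 symbols of the deposited table, and 15 of its 24015 entries carried them. RNA had been recovered by immunoprecipitation from LM2-4175, breast carcinoma cells that were selected from MDA-MB-231 for metastasis to the lung. All cells, untreated ones included, carried a construct from which doxycycline induces CerS4, a ceramide synthase, and were grown with puromycin and hygromycin. The 4 groups were EXOSC10 antibody with doxycycline (5 µg/mL for 48 h), EXOSC10 antibody without doxycycline, control IgG with doxycycline, and control IgG without doxycycline. Each group was 1 library, so a ratio between libraries has no replicate check and gets no p-value. The study's main question was how the RNA bound to EXOSC10 differs when CerS4 is induced. Whether the line is a single clone is not given in the sources used here, and CERS4 itself had no entry analysed here, so its induction was not checked.

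The RNA exosome is a multi-subunit complex that degrades RNA from its tail end, and EXOSC10 is a catalytic subunit found in the nucleus and nucleolus. The helicase MTREX unwinds RNA and feeds it to the exosome, and adaptors decide which RNAs it meets. In the NEXT complex MTREX works with the RNA-binding protein RBM7 and the zinc knuckle scaffold ZCCHC8 on short unspliced transcripts from promoters and enhancers. In the TRAMP complex of the nucleolus it works with the zinc knuckle protein ZCCHC7 and the non-canonical poly(A) polymerase TENT4B, whose paralog is TENT4A. In the PAXT connection the zinc finger protein ZFC3H1 links it to polyadenylated RNAs. C1D and MPHOSPH6 are small proteins that sit on the nuclear exosome, C1D through EXOSC10, and take part in the maturation of ribosomal RNA.

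Values were deposited as CPM, reads scaled to the same total in each library, from which reads were estimated by the size of the step between low values. The libraries held 5511244 reads (EXOSC10 with doxycycline), 4233643 (EXOSC10 untreated), 7575188 (IgG with doxycycline) and 3723348 (IgG untreated). Ribosomal RNA took 56.3% to 83.8% of them. This left 2408192 reads on other genes in the EXOSC10 library with doxycycline, against 1023374 to 1229754 in the other 3 libraries. Of the markers of the parental line, 5 of 5 had an entry, VIM with 2079 to 4396 reads and CD44 with 73.5 to 917 among them. Of the luminal breast markers 4 of 6 had an entry and of the fibroblast markers 1 of 3. Of the luminal markers KRT19 had 185 to 1163 reads, FOXA1 35.0 to 411, GATA3 17.0 to 69.0 and CDH1 0.43 to 35.0. These reads are not scaled for depth, and each marker had most in the deepest library outside ribosomal RNA, EXOSC10 with doxycycline. LYZ, a blood marker, had at most 15 reads, and the fibroblast marker COL1A1 had 15 to 65.0. ESR1, EPCAM, PTPRC, CD3E, PDGFRB and LUM had no entry analysed here.

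Levels below are CPM scaled with TMM, a trimmed mean of the ratios between libraries, and a ratio is the log2 ratio of such values after adding 0.2 CPM. The 95% interval beside a ratio is Clopper-Pearson's, computed from estimated reads, and covers counting error only. A gene was called when its pair of libraries held at least 100 reads and the ratio was at least 2-fold. Transcript lengths were not used here, so levels are compared between libraries for the same gene and never between genes. In bulk libraries, fewer cells with an mRNA and less mRNA per cell cannot be told apart, and input RNA was not analysed here.

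**Figure D1:**
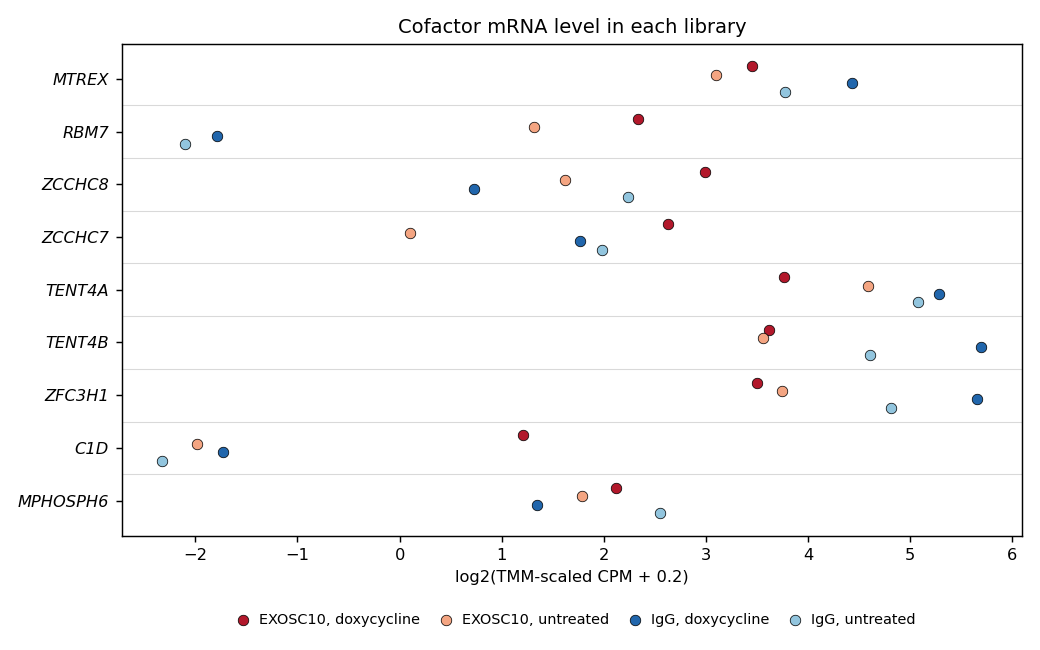
Level of each cofactor mRNA in the 4 libraries, as log2 of TMM-scaled CPM plus 0.2, with 1 point per library. MTREX, TENT4A, TENT4B and ZFC3H1 lie lower in the EXOSC10 libraries than in the IgG libraries, while RBM7 lies higher and had no full read with IgG.

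With TMM scaling, the mRNAs of ZFC3H1, TENT4B, TENT4A and MTREX lay lower in the EXOSC10 than in the IgG libraries. Other scalings, given below, change this. ZFC3H1, the adaptor of the PAXT connection, had 11.1 scaled CPM with doxycycline and 13.2 untreated in the EXOSC10 libraries, against 50.2 with doxycycline and 27.8 untreated in the IgG libraries. Both EXOSC10 libraries thus lay below both IgG libraries. These levels rest on 153 and 69.0 reads with EXOSC10, doxycycline first, and on 172 and 74.0 with IgG. Its EXOSC10 over IgG ratio was -2.16 with doxycycline (95% interval -2.50 to -1.85) and -1.07 untreated (-1.57 to -0.59).

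TENT4B, the poly(A) polymerase of the TRAMP complex, followed nearly the same course. It had 12.1 scaled CPM with doxycycline and 11.6 untreated with EXOSC10, against 51.7 with doxycycline and 24.1 untreated with IgG. The ratios were -2.08 with doxycycline (-2.41 to -1.78) and -1.05 untreated (-1.59 to -0.53). The groups did not overlap here either. Of the 8 members with 10 reads in 2 libraries, 4 (MTREX, ZFC3H1, TENT4A and TENT4B) had both EXOSC10 libraries below both IgG libraries and 1 (RBM7) had both above. Over all 9594 such genes 28.8% lay below and 33% above. RBM7 met the filter of 10 reads only through its EXOSC10 libraries (66.9 and 12.0 reads), so the filter itself favoured its place above.

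TENT4A, the paralog of TENT4B, had 13.4 scaled CPM with doxycycline and 23.9 untreated with EXOSC10, against 38.8 with doxycycline and 33.5 untreated with IgG. With doxycycline the ratio was -1.52 (-1.86 to -1.20). Untreated it was -0.48 (-0.89 to -0.08), short of 2-fold although its interval lay below 0. MTREX, the helicase shared by NEXT, TRAMP and PAXT, had 10.7 scaled CPM with doxycycline and 8.36 untreated with EXOSC10, against 21.3 with doxycycline and 13.5 untreated with IgG. Its ratio was -0.97 with doxycycline (-1.40 to -0.56), just under 2-fold lower. Untreated it was -0.67 (-1.36 to -0.01), on 79.5 reads, below the minimum. MTREX overlaps the protein-coding gene PLPP1 in the annotation, and its reads were not whole in every library.

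Of the NEXT adaptors, ZCCHC8 was called higher with EXOSC10 in the doxycycline libraries only, and RBM7 was too sparse for a call in either treatment. ZCCHC8, the scaffold, had 107 reads with EXOSC10 and 5.00 with IgG in the doxycycline libraries, or 7.76 and 1.46 scaled CPM. Its EXOSC10 over IgG ratio there was 2.26 (1.14 to 4.06), above 2-fold. Untreated, ZCCHC8 had 15 reads with EXOSC10 and 12.0 with IgG, and the ratio of -0.62 (-1.85 to 0.57) does not exclude equality. The EXOSC10 library with doxycycline was thus the highest and the IgG library with doxycycline the lowest of the 4.

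RBM7, the RNA-binding subunit of NEXT, had 66.9 reads with EXOSC10 and no full read with IgG in the doxycycline libraries. Untreated it had 12.0 reads with EXOSC10 and again no full read with IgG. Taking a floor of 3 reads in the IgG library, RBM7 was at least 5.55-fold higher with EXOSC10 in doxycycline-treated cells and at least 2.03-fold higher in untreated cells. These folds take the EXOSC10 reads as measured, and the counting intervals of the log2 ratios began lower, at 1.91 with doxycycline and 0.42 untreated. Both pairs lay below the minimum of 100 reads. RBM7 was the only member with EXOSC10 above IgG in both treatments by counts whose intervals or bounds lay above 0.

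The remaining members were sparse. ZCCHC7, the zinc knuckle protein of TRAMP, had 82.5 reads with EXOSC10 and 10.9 with IgG in the doxycycline libraries, at a ratio of 0.87 (-0.01 to 1.97). Untreated it had 4.58 reads with EXOSC10 and 10.0 with IgG, at -1.88 (-4.08 to -0.38). MPHOSPH6 had 57.0 reads with EXOSC10 and 8.0 with IgG with doxycycline (0.77, -0.25 to 2.10), and 17.0 and 15 untreated (-0.76, -1.89 to 0.31). C1D had 29.0 reads in the EXOSC10 library with doxycycline and no full read in the other 3 libraries. With doxycycline it was at least 2.40-fold higher with EXOSC10 than with IgG, with a counting interval that began at 0.62 on the log2 scale. The annotation holds 5 pseudogene copies of C1D, 1 of RBM7 and 1 of MPHOSPH6, which may share reads with them, and none of these copies has an entry of its own here.

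**Figure D2:**
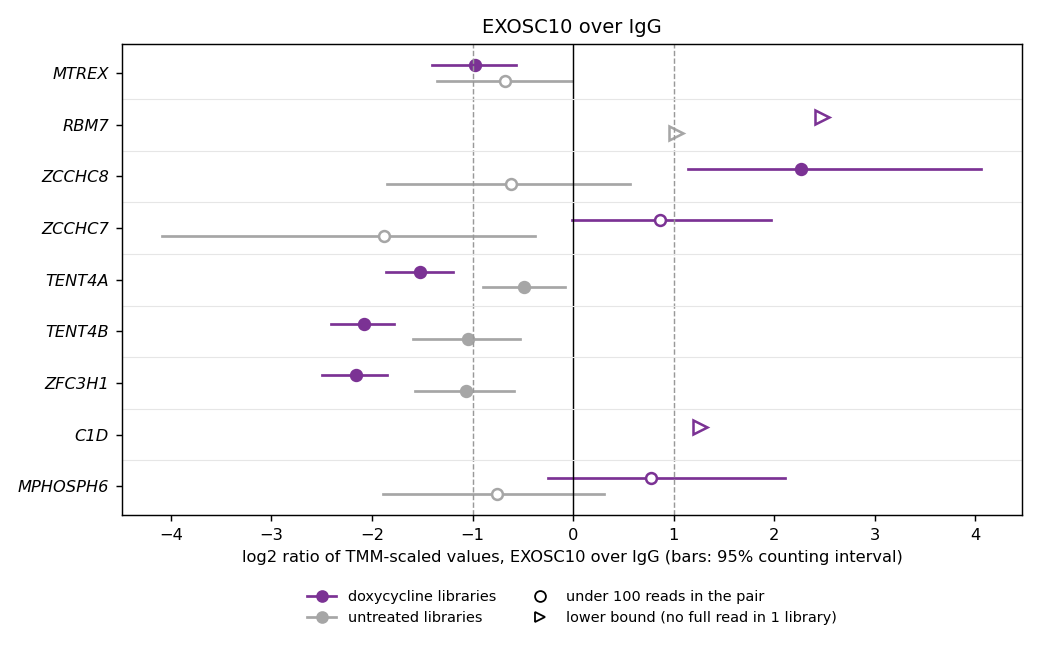
EXOSC10 over IgG ratio of each cofactor mRNA (log2 of TMM-scaled values) in doxycycline and untreated libraries. Bars are exact 95% intervals of counting error, open circles hold under 100 reads, triangles are lower bounds and dashed lines mark 2-fold; with doxycycline ZFC3H1, TENT4B and TENT4A lie at -2.16, -2.08 and -1.52 and ZCCHC8 at 2.26.

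In the doxycycline libraries 5 of the 9 members reached 100 reads, of which 1 was called higher with EXOSC10 and 3 lower. Over all 6279 genes with 100 reads, 14% were called higher and 26.6% lower. The median ratio was -1.52 over the 5 members and 0.05 over all genes. ZCCHC8 reached the minimum only through the EXOSC10 library. In the untreated libraries 3 members reached 100 reads, of which 0 were called higher and 2 lower, while 5.36% of 3619 genes were called higher and 36.1% lower. The untreated median was -1.05 over the 3 members and -0.45 over all genes. Untreated, 34.5% of genes lay below ZFC3H1, 35.0% below TENT4B and 49.2% below TENT4A, so none of them stood at the edge of the distribution. With doxycycline, 8.73% of genes lay below ZFC3H1 and 9.83% below TENT4B, and 1.77% above ZCCHC8.

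Scaling decides whether ZFC3H1, TENT4B and TENT4A were below IgG in absolute terms. With doxycycline and scaling by total reads, their ratios were 0.29, 0.37 and 0.93. That scaling moved the median of all genes to 2.47, against 0.05 with TMM. Scaled by reads outside ribosomal RNA, the ratios were -1.13, -1.05 and -0.49, with a median of 1.07, so TENT4A was not called there. Relative to the median of all genes tested, ZFC3H1 lay at -2.44 to -2.02, TENT4B at -2.36 to -1.55 and TENT4A at -1.81 to -1.05 over the settings tried. ZCCHC8 lay 1.79 to 2.22 above that median in the settings that left it 100 reads. Both untreated calls depend on scaling too. Untreated, ZFC3H1 and TENT4B were at -0.28 and -0.26 with total reads, at -0.06 and -0.04 with reads outside ribosomal RNA, and at -0.94 and -0.92 with upper quartile scaling.

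A fit across 9594 genes by limma used all 4 libraries, with treatment as covariate and 1 residual degree of freedom, so that the treatments stand in for replicates. It called 2 of the 8 members tested, both lower with EXOSC10, where 15.9% of all genes were called lower and 1.37% higher. ZFC3H1 had an EXOSC10 over IgG effect of -1.61 on the log2 scale (SE 0.36, limma adjusted p = 0.0147) and TENT4B of -1.56 (SE 0.35, limma adjusted p = 0.0165). Both were lower in 2 of 2 treatments. Scaled by total reads, ZFC3H1 had an effect of 0.002 and TENT4B of 0.05, and scaled by reads outside ribosomal RNA, -0.59 and -0.54, none of them called. Without the mean-variance trend both calls were lost as well (limma adjusted p = 0.157 for ZFC3H1 and 0.159 for TENT4B), with 0 of 9594 genes called. RBM7 (3.77, SE 1.21, limma adjusted p = 0.0688), TENT4A (-1.0, SE 0.34, 0.0813) and MTREX (-0.82, SE 0.37, 0.168) did not pass. The RBM7 effect is set by the added 0.2 CPM, since it had no full read with IgG. RBM7 met the filter only through its EXOSC10 libraries. C1D was below the filter of 10 reads in 2 libraries.

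Within the EXOSC10 libraries, doxycycline over untreated, ZCCHC8 was the only member called, with 107 reads with doxycycline and 15 untreated, a ratio of 1.38 (0.65 to 2.32). ZCCHC8 was 1 of 5 members with 100 reads. It reached that minimum only through the doxycycline library, and thinned libraries left it under 100 reads at a ratio of 1.12. Over all 6584 such genes 6.06% were called higher and 3.98% lower, and 2.81% lay above ZCCHC8. TENT4A was lower, with 185 reads with doxycycline and 125 untreated. Its ratio of -0.82 (-1.17 to -0.49) did not reach 2-fold and lay above 7.50% of genes. MTREX (0.35, -0.13 to 0.88), TENT4B (0.06, -0.37 to 0.51) and ZFC3H1 (-0.24, -0.67 to 0.18) had intervals that include equality.

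Below the minimum of 100 reads, ZCCHC7 had 82.5 reads with doxycycline and 4.58 untreated with EXOSC10 (2.52, 1.44 to 4.52). RBM7 had 66.9 and 12.0 (1.02, 0.18 to 2.11), and MPHOSPH6 57.0 and 17.0 (0.33, -0.45 to 1.22). C1D, with 29.0 reads with doxycycline and no full read untreated, was at least 3.67-fold higher, with a counting interval that began at 1.27 on the log2 scale. The EXOSC10 library with doxycycline was the deepest outside ribosomal RNA. With the libraries thinned to equal reads outside ribosomal RNA, the ratio was 2.77 for ZCCHC7, 1.05 for RBM7, 3.60 for C1D and -0.0037 for MPHOSPH6.

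With control IgG the abundant members lay on the higher side with doxycycline. TENT4B had 177 reads with doxycycline and 64.1 untreated, a ratio of 1.09 (0.68 to 1.54). It was the 1 member called higher of 4 with 100 reads, and 0 were called lower. Over all 3027 genes 2.97% were called higher and 3.44% lower, and 2.41% of genes lay above TENT4B. ZFC3H1 had 172 reads with doxycycline and 74.0 untreated (0.85, 0.45 to 1.26), and MTREX 73.0 and 35.8 (0.65, 0.07 to 1.28). TENT4A had 133 and 89.0 (0.21, -0.19 to 0.62). The median over these 4 members was 0.75, against -0.05 over all genes. ZCCHC8 had 5.00 reads with doxycycline and 12.0 untreated (-1.51, -3.49 to -0.02), and MPHOSPH6 8.0 and 15 (-1.21, -2.72 to 0.06). RBM7 and C1D had no full read in either IgG library.

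**Figure D3:**
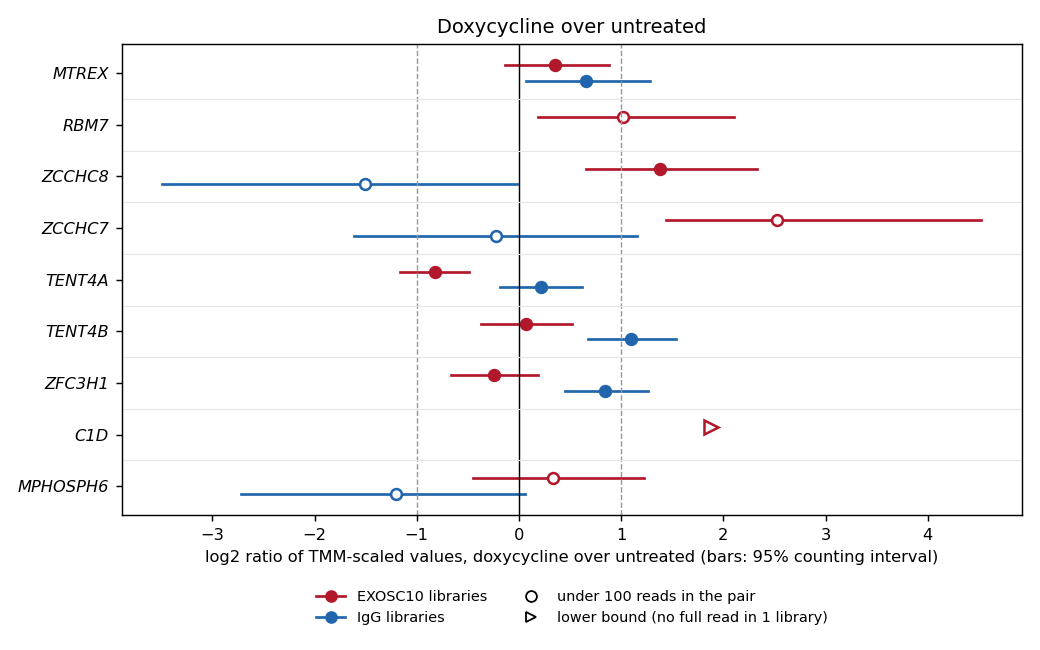
Doxycycline over untreated ratio of each cofactor mRNA (log2 of TMM-scaled values) in the EXOSC10 and in the IgG libraries. Bars are exact 95% intervals of counting error, open circles hold under 100 reads, triangles are lower bounds and dashed lines mark 2-fold; ZCCHC8 lies at 1.38 with EXOSC10 and TENT4B at 1.09 with IgG.

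The limma fit for doxycycline, with antibody as covariate, called 0 of the 8 members and 0 of 9594 genes (0% in each direction). In that fit 444 genes had an unadjusted p under 0.05, fewer than this level would pass with no effect. None of those 444 was a member. The additive model holds a common effect of doxycycline for both antibodies, and the ratios with EXOSC10 and with IgG differed in sign for ZFC3H1, TENT4A, ZCCHC8, ZCCHC7 and MPHOSPH6.

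The change of EXOSC10 over IgG, doxycycline minus untreated, draws on all 4 libraries, and its interval comes from the summed reciprocals of the reads. It was -1.09 for ZFC3H1 (-1.66 to -0.52), -1.03 for TENT4A (-1.54 to -0.53), -1.03 for TENT4B (-1.62 to -0.44) and -0.30 for MTREX (-1.06 to 0.45). These were the 4 members with 100 reads for each antibody, and 3 of them were at least 2-fold lower and 0 higher. Over all 2946 genes 10.9% were at least 2-fold lower and 4.75% higher. The median was -1.03 over the 4 members and -0.14 over all genes. All 3 values lay close to the 2-fold line, and only ZFC3H1 passed it with upper quartile scaling or in thinned libraries. With total reads 0 were lower and MTREX was higher. In TENT4B and ZFC3H1 the IgG ratio was the larger term, while in TENT4A it was the EXOSC10 ratio. For sparse members the change was 2.88 for ZCCHC8 (1.19 to 4.58), 2.75 for ZCCHC7 (0.91 to 4.58) and 1.54 for MPHOSPH6 (0.07 to 3.0), on fewer than 100 reads with IgG.

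The ratios of sparse and abundant genes differed over the whole table, and how far this bears on the members was not tested. No deposited entry stayed under 10.0 reads in all libraries. For EXOSC10 over IgG with doxycycline, the median over all genes was 0.69 at 20 to 100 reads, 0.18 at 100 to 500 reads and -1.01 at 500 reads or more. The 4 members at 20 to 100 reads, ZCCHC7, RBM7, C1D and MPHOSPH6, had ratios or bounds on the higher side, where 42.5% of all genes of that class were at least 2-fold higher. ZCCHC8, ZFC3H1, TENT4A, TENT4B and MTREX all lay at 100 to 500 reads, where 17.5% of genes were 2-fold higher and 19.4% lower. Which members fell at 20 to 100 reads differed between the comparisons. For EXOSC10 over IgG untreated the median of genes at 20 to 100 reads was 0.33, while MTREX, ZCCHC8 and MPHOSPH6 of that class had -0.67, -0.62 and -0.76. ZCCHC7, RBM7 and C1D held under 20 reads in that pair, ZCCHC7 at -1.88 and RBM7 with a bound of 2.03-fold higher. For doxycycline over untreated with IgG the class median was 0.03, while ZCCHC7 had -0.22 and MPHOSPH6 -1.21. For doxycycline over untreated with EXOSC10, 31.7% of genes at 20 to 100 reads were 2-fold higher, against 7.67% at 100 to 500 reads.

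**Figure D4:**
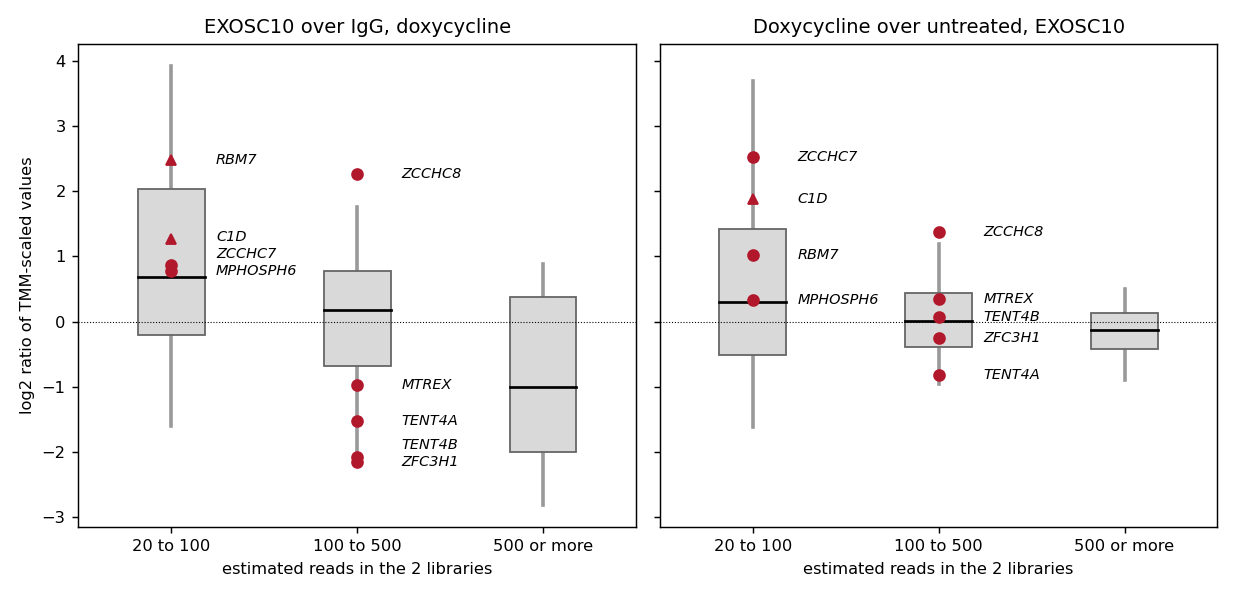
Log2 ratios of the cofactor mRNAs (red; triangles are lower bounds) by the reads in the pair of libraries, over the distribution of all genes in the same class: box, quartiles; black line, median; grey bar, 5th to 95th percentile. In these comparisons the members at 20 to 100 reads lie above 0, as their class medians do, while ZCCHC8 and ZFC3H1 lie on opposite sides within 100 to 500 reads.

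Of the 9 members, 5 had several deposited entries, whose gene models the table does not identify, and their reads moved between entries from library to library. TENT4B had 2 entries. The first held 0.29% of its reads in the EXOSC10 library with doxycycline and 98.3% in the untreated EXOSC10 library. In the IgG libraries it held 0.17% with doxycycline and 2.05% untreated, so the untreated EXOSC10 library stood alone. Read by entry, TENT4B would show large opposite changes that its sum of 167 and 60.6 reads does not.

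ZCCHC7 had 3 entries. The third held 0.01% of the EXOSC10 reads with doxycycline and 100% of the IgG reads in both treatments, while the first and second shared the EXOSC10 reads at 12.2% and 87.8% in both treatments. ZCCHC8 split between 2 entries in the EXOSC10 library with doxycycline (46.9 and 60.1 reads). In the untreated EXOSC10 library 99.9% of its reads were on the second. With IgG its 5.00 reads with doxycycline lay on the first entry and its 12.0 untreated reads on the second. RBM7 had 36.4 and 30.5 reads on its 2 entries with doxycycline and EXOSC10, and 12.0 and 0.00 untreated. TENT4A used its first entry for 5.61% of reads with EXOSC10 and 34.9% with IgG in the doxycycline libraries, and for 22.8% with EXOSC10 and 50.7% with IgG untreated. Its sums were whole in all 4 libraries while its entries were not. The sum over entries is therefore the value used for every member.

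**Figure D5:**
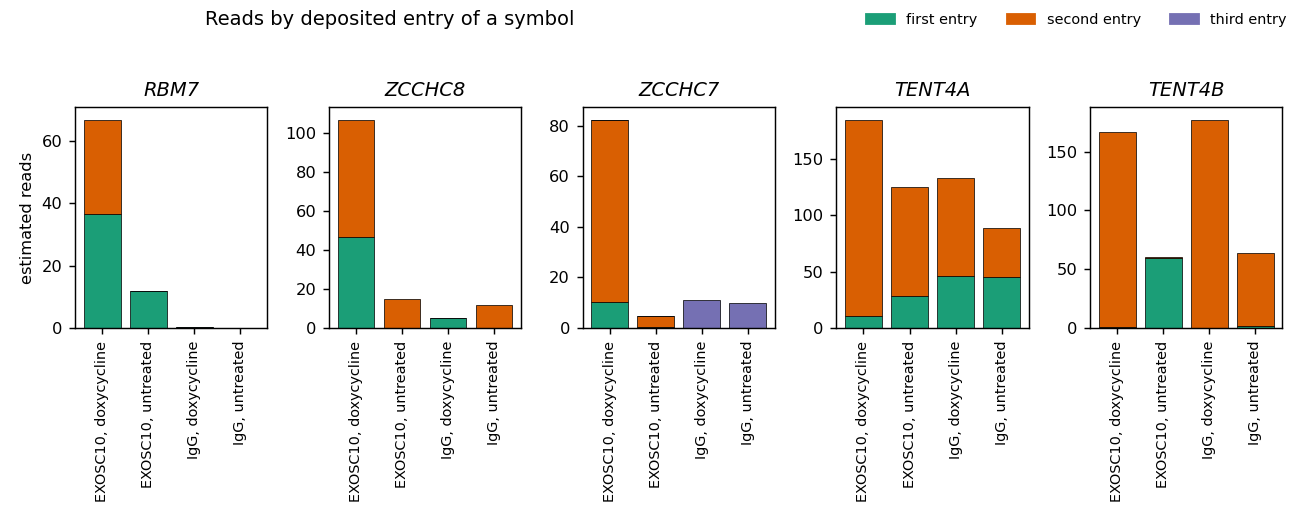
Estimated reads of the 5 cofactor mRNAs with several deposited entries, stacked by entry, in each of the 4 libraries. The TENT4B reads of the untreated EXOSC10 library lie on the first entry (59.6 of 60.6) and those of the other libraries on the second.

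Likeness of pattern was measured as the Euclidean distance between the 4 log2 levels of a gene after taking off its own mean. It was computed among the members and 36 further genes of the same pathways, where they held 100 reads over the 4 libraries. ZFC3H1 and TENT4B were the most alike pair of members, at a distance of 0.28. The nearest gene outside the members was TUT4, a terminal uridylyltransferase, at 0.24 for ZFC3H1 and 0.41 for TENT4B. TENT4A was nearest to RBM26 (0.34), which acts with the PAXT connection, and MTREX to PAPOLA, the canonical poly(A) polymerase (0.39). ZCCHC8 was nearest to NOP53, a nucleolar partner of MTREX (0.93), and ZCCHC7 to PAPOLG (1.20). These are distances over 4 libraries only, and they are given as a description.

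The 36 further genes covered exosome subunits, cap-binding adaptors, PAXT partners, other MTREX partners, cytoplasmic exosome cofactors and other terminal nucleotidyltransferases. In the limma fit for antibody 33 of them were tested, of which 0 were higher and 6 lower with EXOSC10, where 15.9% of all genes were lower. The nuclear poly(A)-binding protein gene PABPN1, which joins ZFC3H1 in PAXT, was lower (-1.52, SE 0.24, limma adjusted p = 0.00335), with 532 and 295 reads with EXOSC10 against 402 and 410 with IgG. PABPN1 had 38.6 and 56.4 scaled CPM with EXOSC10, doxycycline first, against 117 and 154 with IgG. The other genes called lower were the MTREX inhibitor NRDE2 (-1.97), HBS1L (-1.07) and WDR61 (-2.07) of the cytoplasmic exosome pathway, TENT2 (-2.07) and TUT4 (-1.48). For doxycycline 0 of the 33 passed. The 6 antibody calls were read with TMM scaling only. Over all 9594 genes, 6 were called lower with total reads, 588 with reads outside ribosomal RNA and 0 with no mean-variance trend.

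In the EXOSC10 libraries, doxycycline over untreated, 23 of these genes had 100 reads. Of them 2 were at least 2-fold higher, EXOSC2 of the exosome core (1.01, 0.46 to 1.66) and TUT7 (1.15, 0.49 to 1.96). A further 2 were lower, ZC3H18, which links NEXT to the cap-binding complex (-1.03, -1.40 to -0.68), and NRDE2 (-2.08, -2.73 to -1.59). Over all 6584 genes 6.06% were higher and 3.98% lower. EXOSC10 over IgG with doxycycline was 2-fold higher in 1 of 22 genes, EXOSC6 (1.31), and lower in 6, against 14% and 26.6% of all genes. Untreated it was higher in 1 of 12, NCBP2 (1.53), and lower in 2, PABPN1 (-1.45) and TUT4 (-1.11), against 5.36% and 36.1% of all genes. The mRNA of EXOSC10 itself had 78.0 and 15 reads with its antibody, doxycycline first, and 21.0 and 6.00 with IgG.

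The cofactor genes lie apart from each other in the genome (GRCh38.p14). ZCCHC8 spans chromosome 12 from 122471600 to 122500932 and ZFC3H1 chromosome 12 from 71609599 to 71663848. RBM7 spans chromosome 11 from 114400666 to 114410607, TENT4B chromosome 16 from 50152911 to 50235310, TENT4A chromosome 5 from 6713432 to 6757044 and MTREX chromosome 5 from 55307989 to 55425579. As genomic context, the 100 bases before the RefSeq start are shown for the 2 NEXT adaptors and for ZFC3H1 and TENT4B. For EXOSC10 over IgG with doxycycline, ZCCHC8 was called higher, RBM7 was too sparse for a call, and ZFC3H1 and TENT4B were called lower. The libraries hold no measurement of these promoters. Capitals mark matches, on either strand, to the GC box GGGCGG, the CCAAT box CCAAT, the TATA box TATAAA or the ETS core CCGGAAG.
ZCCHC8, chr12:122500933-122501032, minus strand: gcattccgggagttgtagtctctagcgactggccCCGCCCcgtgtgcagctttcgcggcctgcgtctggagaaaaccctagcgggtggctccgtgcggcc
RBM7, chr11:114400566-114400665, plus strand: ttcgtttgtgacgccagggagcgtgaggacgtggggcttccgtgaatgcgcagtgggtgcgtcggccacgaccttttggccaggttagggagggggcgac
ZFC3H1, chr12:71663849-71663948, minus strand: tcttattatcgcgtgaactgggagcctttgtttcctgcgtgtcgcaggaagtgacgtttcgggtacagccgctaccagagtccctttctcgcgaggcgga
TENT4B, chr16:50152811-50152910, plus strand: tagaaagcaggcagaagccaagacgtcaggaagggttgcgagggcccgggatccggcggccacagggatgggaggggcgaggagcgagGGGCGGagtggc
Within 250 bases before the start, the GC box was present in 5 of the 8 member promoters matched and in 42.6% of 35116 RefSeq promoters. The CCAAT box was present in 1 of 8 (32.0% of all), the ETS core in 1 of 8 (8.52%) and the TATA box in 0 of 8 (10.7%). ZCCHC8 and TENT4B hold a GC box, while RBM7 and ZFC3H1 do not, so the pairs are not separated by it.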

How the data were processed

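The authors deposited CPM for 4 libraries. The unit was read from the column sums, and 0.0001 had been added to each entry. STAR, Partek and genome build hg38 are named per the submitters' processing notes, without versions. Of aligner settings, annotation and strand rule, nothing is given in the sources used here. The label calls the molecule polyA RNA, and per the labels' protocols total RNA entered a SMARTer mRNA kit.

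The constant was taken off, reads were estimated as CPM divided by the value of 1 read (0.132 to 0.269 CPM), and entries of a symbol were summed. Sums came within 0.05 of whole reads for 67.1% to 70.5% of genes, so limma was used and no count model. TMM trimmed 30% of ratios and 5% of levels (factors 0.453 to 2.50). Tests used limma 3.58.1 in R 4.3.3 on log2(CPM + 0.2) with a mean-variance trend, genes with 10 reads in 2 libraries, and Benjamini-Hochberg adjustment at 0.05. Python 3.11.15 with numpy 2.4.6, pandas 2.3.3, scipy 1.17.1 and matplotlib 3.10.9 did the rest. The procedures were tested on simulated data. Intervals and the floor of 3 reads cover counting error only, since PCR reads with no molecular identifiers are not independent. Nothing in the labels says which libraries share a culture.

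The members, gene lists and tests were chosen with earlier results of these data known. All 9 members are named, and other genes come from pathway lists, named when called at 2-fold or by limma or when nearest in pattern. An entry named MPP6, an older name of both MPHOSPH6 and PALS2, was not counted.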

Additional observations from a re-analysis of the deposited data

Results flagged for a closer look

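ZCCHC8 moved in opposite directions with doxycycline in the EXOSC10 and IgG libraries, with counting intervals that each leave out 0. The ratio was 1.38 with EXOSC10 (107 reads with doxycycline, 15 untreated) and -1.51 with IgG (5.0 and 12). The difference was 2.88 on the log2 scale. With IgG the interval ended at -0.02, close to 0, and intervals were computed with TMM scaling only. Over the scalings the IgG ratio ran from -1.99 to -1.33. The difference rests on 17.0 reads with IgG and on 1 library per group, so it was not tested against replicate error. Those IgG reads lay on the first deposited entry of ZCCHC8 with doxycycline and on the second untreated. Whether this bears on the difference was not tested.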

How the results depend on the processing

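No paired analysis was possible because the groups share a single replicate number; the limma fits hold the other factor as covariate. With 1 library per group none could be left out, as no residual degree of freedom would remain. Of the 36 member ratios 13 turned sign under a setting: 10 with total reads, 5 with reads outside ribosomal RNA, 1 with median-of-ratios scaling and 1 in thinned libraries. Of these, 3 had been called. With total reads EXOSC10 over IgG with doxycycline was 0.29 for ZFC3H1, 0.93 for TENT4A and 0.37 for TENT4B. MTREX, not called, was at 1.46 there and at 0.05 with reads outside ribosomal RNA.

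The limma test of antibody called 2 members as reported. It called 1 (RBM7) with total reads or with reads outside ribosomal RNA, 4 with a pseudocount of 1 CPM or with no filter (RBM7, ZFC3H1, TENT4A, TENT4B), and 0 with no mean-variance trend. Over all genes it called 131 higher and 1523 lower, against 520 in all (514 higher, 6 lower) with total reads, 4089 (3501 higher, 588 lower) with reads outside ribosomal RNA and 0 with no trend. With a pseudocount of 1 CPM the antibody test called 377 higher and 1760 lower of 9594 genes. With no filter it called 377 higher and 1808 lower of 12838. The test of doxycycline called 0 genes, 11 with total reads and 4 with no filter.

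Of the counts at 2-fold, total reads gave 3 members higher for doxycycline over untreated with EXOSC10, 0 higher with IgG, 2 higher and 0 lower for EXOSC10 over IgG with doxycycline and 0 lower untreated. Over all genes, doxycycline over untreated was then higher in 3150 of 6584 with EXOSC10 and in 12 of 3027 with IgG. EXOSC10 over IgG was higher in 5080 of 6279 and lower in 34 with doxycycline, and lower in 523 of 3619 untreated. Untreated, 0 were lower with reads outside ribosomal RNA or upper quartile scaling, and 1 with a pseudocount of 1 CPM or thinned libraries. Of all 3619 genes, 305 were lower with reads outside ribosomal RNA, 1186 with upper quartile scaling and 1287 with that pseudocount. In thinned libraries 1305 of 3596 were lower. A minimum of 20 reads gave 4 higher for doxycycline over untreated with EXOSC10, 1 lower with IgG, and 3 higher for EXOSC10 over IgG with doxycycline. The counts over all genes there were 1876 of 11243, 549 of 7316 and 2864 of 10945. Thinned libraries gave 0 higher in both comparisons that called ZCCHC8, which then held under 100 reads. Over all genes 93 of 4597 were then higher for doxycycline over untreated with EXOSC10. For EXOSC10 over IgG with doxycycline 288 of 3911 were. For the change of EXOSC10 over IgG, alternatives chosen after seeing the data gave 1 higher and 0 lower with total reads, 2 higher with 20 reads, and 1 lower with upper quartile scaling or thinning. Shares over all genes were not computed for these alternatives. A minimum of 500 reads left no member. Median-of-ratios scaling moved none of these counts by over 1.5 times. For EXOSC10 over IgG with doxycycline it also called MTREX lower (-1.03), where 1719 of 6279 genes were lower.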
